A study of Mus musculus with 6 samples.

Results

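Fibroblast growth factors (FGFs) are secreted ligands that signal through receptor tyrosine kinases, and the results below cover 5 ligand genes (Fgf2, Fgf7, Fgf9, Fgf10 and Fgf18) and 4 receptor genes (Fgfr1, Fgfr2, Fgfr3 and Fgfrl1) in Nestin-GFP-positive cells. The 9 genes were taken by name and matched by Ensembl identifier, each to 1 of the 37991 gene rows of every count file, and all 9 passed the filter on low counts. The cells were sorted from dermis and attached subcutaneous white fat of mouse pups 3 days old, after the epidermis and hair follicles had been removed. The 3 control libraries came from mice with the Nes-GFP reporter, which marks cells where Nestin regulatory sequence is active. The 3 mutant libraries came from mice with Nes-GFP, Nes-Cre and the allele PDGFRα+/[S]D842V. That allele is 1 copy of a platelet-derived growth factor receptor gene with an activating change. Both groups share the reporter and the sort, and the control label names no Nes-Cre, so the recombinase and the allele cannot be told apart. Cre here follows the Nestin driver, and any cell that used it, at that time or earlier, could carry the active allele.

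FGF ligands bind their receptors together with heparan sulfate, a sulfated sugar chain on cell surface and matrix proteins. Bound receptors signal through the adaptor Frs2 to the Ras and ERK kinases, and the pathway induces its own inhibitors, the Sprouty and Spred proteins among them. In skin and fat, mesenchymal cells make Fgf7 and Fgf10, which act on epithelial cells through the IIIb splice form of Fgfr2, and Fgf10 has also been tied to the formation of white fat. Fgfr1 is the main receptor of many mesenchymal cells. Gene counts sum the splice forms, so the IIIb and IIIc forms of a receptor were not separated.

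Gene counts per library ran from 11912469 to 18792939. Levels are TMM-scaled CPM, counts relative to a common library total, and 3 counts corresponded to 0.158 to 0.252 CPM, which covers counting error only. The summed markers of mural cells (10 genes, 1287 to 1948 CPM) and of fibroblasts (10 genes, 82242 to 105901 CPM) were present in every library. Most of the fibroblast sum came from Col1a1 and Col3a1, with means of 37684 and 51488 CPM over all libraries. The sums therefore do not compare numbers of cells. The series title names pericytes. Pdgfra, the gene of the mutant allele, had 820 to 857 CPM in control mice and 345 to 369 CPM in mutant mice. Markers of some other cell types moved with the genotype. Of 12 keratinocyte markers 6 were called higher (summed 612 to 933 CPM in control mice, 1081 to 1354 CPM in mutant mice), of 12 endothelial markers 6 (166 to 201 and 276 to 380 CPM) and of 12 markers of skeletal muscle and satellite cells 8 (109 to 126 and 229.9 to 337 CPM). None of these 36 markers was at 0 in all libraries. By edgeR 8.63% of all genes tested were called higher and 9.13% lower. Of 10 mural markers 2 were called higher and 0 lower. In the lists of dermal papilla, macrophage, Schwann cell and melanocyte markers 0 were called higher. Called lower were, in that order, 3 of 10, 0 of 8, 1 of 8 and 1 of 6. Adipocyte and mast cell lists were mixed. Of 7 tested adipocyte markers only Fabp4 was called, higher (summed 172 to 262 and 263 to 578 CPM). Mutant replicate 2 held the highest of these sums, beside 286 and 263 CPM in mutant replicates 1 and 3. The fitted log2 values of Adipoq (1.67), Cidec (3.10), Retn (2.57) and Cfd (4.39) were positive. Those of Plin1 (-0.15) and Pparg (-0.32) were negative, and the list median was 1.67. Of 5 tested mast cell markers 3 were called higher and 1, Kit, lower (-1.03 in log2, adjusted p = 0.0342 by edgeR), with sums of 79.5 to 97.3 and 106 to 124 CPM. These genes were named after their values were seen. In bulk RNA, fewer cells of a type and less RNA per cell cannot be told apart, and the part of these markers in the FGF results was not tested.

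Among the 9 genes the ligand Fgf10 and the receptor Fgfr1 rose in mutant cells and none fell. These 2 are 22.2% of the 9, beside 17.8% of all 15035 genes tested by edgeR that were called in either direction and 8.63% that were called higher. No member was called lower by edgeR, DESeq2 or limma-voom, while edgeR called 9.13% of all genes tested lower. Of the 9, 3 had lower fitted values at an unadjusted p under 0.05, namely Fgf7, Fgfr2 and Fgfr3. Every mutant library was above every control in 2 members, Fgf10 and Fgfr1, as in 19.2% of all genes tested. Every mutant library was below every control in 2, Fgfr2 and Fgfr3, as in 18.6%. Without mutant replicate 2 or 3 the rises numbered 1, and without control replicate 1 or 2 there was 1 fall. With no filter on low counts 2 fell, Fgf7 and Fgfr2. The 9 had a median log2 fold change of -0.09, beside 0.01 over all genes tested.

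**Figure D1:**
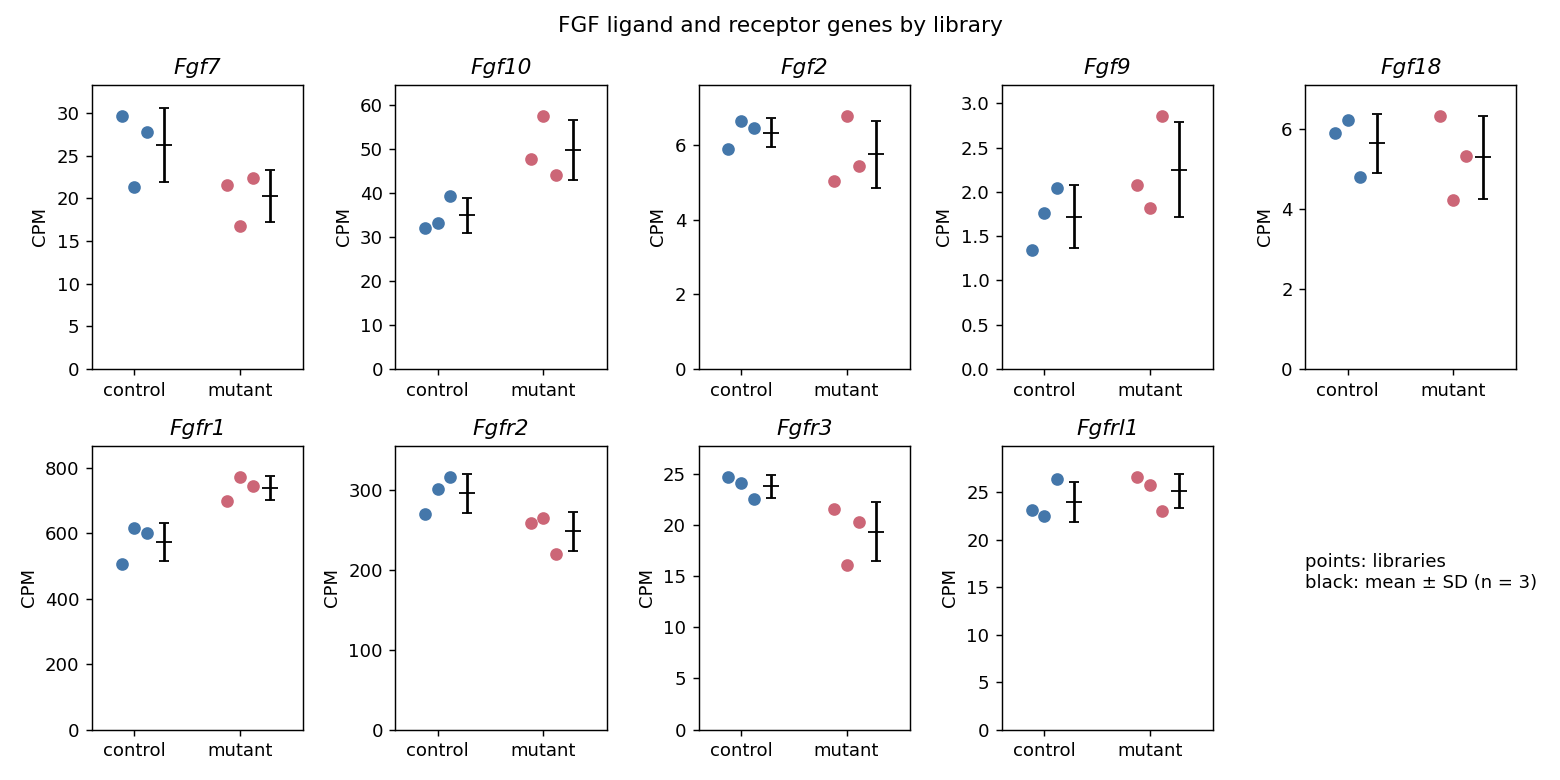
CPM of each of the 9 genes (vertical axes, from 0) in 3 control and 3 mutant libraries (points), with mean and SD in black. The groups are apart for Fgf10 and Fgfr1, where mutants are higher, and for Fgfr2 and Fgfr3, where mutants are lower.

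Fgf7 and Fgf10 are close relatives that share a receptor form, and their fitted fold changes had opposite signs here. Their promoters are shown because, among the 5 ligand genes named above, this pair holds the one that rose and the one with the lowest fitted fold change. Each run is the 250 bases before the RefSeq transcription start, 5′ to 3′ on the plus strand in build GRCm38.p6, Fgf10 at chr13:118714449-118714698 and Fgf7 at chr2:126034408-126034657. Capitals mark matches to any of 5 motifs searched on both strands.
Fgf10: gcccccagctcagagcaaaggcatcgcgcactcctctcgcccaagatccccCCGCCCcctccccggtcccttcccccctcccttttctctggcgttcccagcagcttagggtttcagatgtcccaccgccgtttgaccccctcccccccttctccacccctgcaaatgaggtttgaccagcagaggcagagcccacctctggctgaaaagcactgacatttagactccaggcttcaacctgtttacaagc
Fgf7: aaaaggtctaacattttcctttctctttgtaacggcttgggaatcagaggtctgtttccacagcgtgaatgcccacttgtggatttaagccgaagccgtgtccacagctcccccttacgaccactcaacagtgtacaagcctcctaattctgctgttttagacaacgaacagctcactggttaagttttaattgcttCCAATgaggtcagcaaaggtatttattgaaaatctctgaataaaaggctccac

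The Fgf10 window held 1 GC box (GGGCGG, read here on the other strand), a motif found in 32.7% of 32841 RefSeq windows of this length. The Fgf7 window held 1 CCAAT box (CCAAT), found in 33.9% of windows. Neither held TATAAA (12.4% of windows), the ETS core CCGGAA (12%) or the AP-1 site TGANTCA (6.75%), and no 2 matches overlapped in either window. G and C made up 61.2% of the Fgf10 window and 43.6% of the Fgf7 window. RefSeq windows were at hand for 8 of the 9 genes. The capitals are letter matches in a short stretch of DNA and say nothing about binding in these cells.

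Fgf10 had 32.0, 33.2 and 39.4 CPM in control replicates 1 to 3 and 47.6, 57.3 and 44.1 CPM in mutant replicates 1 to 3. The mutant libraries were all above the controls. The mean rose from 34.9 ± 3.94 to 49.7 ± 6.85 CPM (SD, n = 3 per group), 1.42-fold (95% interval 1.20 to 1.69). On the log2 scale it rose by 0.51, with an adjusted p of 0.0111 by edgeR. The call held in all 12 alternatives, with an adjusted p of at most 0.0457. An antisense gene, Gm16263, shares 2.7% of the exon bases of Fgf10, and without the strand setting its reads could not be told apart there.

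Fgf7, also called keratinocyte growth factor, had 29.6, 21.3 and 27.8 CPM in control mice and 21.5, 16.8 and 22.4 CPM in mutant mice. The groups overlapped, since control replicate 2 was below mutant replicates 1 and 3. The means were 26.2 ± 4.35 and 20.2 ± 3.03 CPM. The fitted log2 fold change of -0.38 (95% interval -0.69 to -0.06) had an adjusted p of 0.0896 by edgeR. That interval is not adjusted over genes. Without control replicate 2 the gene was called lower (log2 fold change -0.50, adjusted p = 0.0363 by edgeR), as it was with no filter on low counts (-0.38, 0.00667).

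The ratio of Fgf10 to Fgf7 within each library does not depend on how libraries are scaled. On CPM per kilobase of exons, Fgf10 was 0.764, 1.10 and 1.00 times Fgf7 in controls and 1.56, 2.41 and 1.39 times in mutants. All mutant ratios were above all control ratios, and mutant replicate 2 was the highest. The log2 ratio was -0.08 ± 0.27 in controls and 0.80 ± 0.42 in mutants, a difference of 0.88. That difference combines the changes of Fgf10 and Fgf7 given above and is no independent result. The exact permutation test gave a two-sided p of 0.1, the smallest that 3 against 3 libraries allow.

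Fgf2, a ligand without a classical signal peptide that binds heparan sulfate tightly, had 5.89, 6.63 and 6.47 CPM in control mice and 5.03, 6.76 and 5.44 CPM in mutant mice. The groups overlapped, and mutant replicate 2 was the highest of the 6 libraries. Its fitted log2 fold change of -0.14 did not pass (95% interval -0.50 to 0.23, adjusted p = 0.605 by edgeR). Nudt6, transcribed from the opposite strand, shares 9.4% of the exon bases of Fgf2 and had 4.82 ± 0.451 CPM in control mice and 5.48 ± 1.04 CPM in mutant mice, so part of either count may belong to the other gene.

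Fgf9, a ligand of mesenchymal receptor forms, was the least abundant member, per length as well, with 1.34, 1.76 and 2.05 CPM in control mice and 2.08, 1.82 and 2.85 CPM in mutant mice. Its counts were between 21 and 54 per library, and the groups overlapped. Its fitted log2 fold change of 0.40 had a wide 95% interval, -0.20 to 1.00 (adjusted p = 0.34 by edgeR). Fgf18, a ligand of bone and hair follicle development, had 5.89, 6.21 and 4.80 CPM in control mice and 6.31, 4.23 and 5.33 CPM in mutant mice. The groups overlapped almost fully for Fgf18. Its log2 fold change was -0.09 (95% interval -0.50 to 0.33, adjusted p = 0.788 by edgeR), and it was 0.047 without mutant replicate 2.

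Fgfr1 was the most abundant of the receptor genes per length. It had 506, 615 and 599.7 CPM in control mice and 699, 772 and 746 CPM in mutant mice. All mutant libraries were above all controls, and control replicate 1 was the lowest. The mean rose from 574 ± 59.4 to 739 ± 36.6 CPM, 1.29-fold (95% interval 1.12 to 1.48). On the log2 scale it rose by 0.37, with an adjusted p of 0.0177 by edgeR. Leaving out mutant replicate 2 ended the call (log2 fold change 0.33, adjusted p = 0.0517), as did leaving out mutant replicate 3 (0.36, 0.0602).

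Fgfr2, the receptor whose IIIb form binds Fgf7 and Fgf10, had 269, 302 and 316 CPM in control mice and 259, 266 and 221 CPM in mutant mice. The groups did not overlap, though control replicate 1 and mutant replicate 2 lay close together. Its fitted log2 fold change of -0.25 (95% interval -0.45 to -0.05) had an adjusted p of 0.0739 by edgeR. Without control replicate 1 it was called lower (log2 fold change -0.33, adjusted p = 0.0233), as it was with no filter on low counts (-0.26, 0.0227). Of 12 keratinocyte markers, which belong to cells that use the IIIb form, 6 were called higher and none lower, as given above. The part of such cells in the Fgfr2 values was not tested.

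Fgfr3, a receptor known as a brake on bone growth, had 24.7, 24.1 and 22.5 CPM in control mice and 21.5, 16.1 and 20.3 CPM in mutant mice. The groups did not overlap, and mutant replicate 2 was the lowest. The fitted log2 value, -0.30, did not pass (95% interval -0.55 to -0.04, adjusted p = 0.0981 by edgeR). G630022F23Rik, on the opposite strand and without a row in the count files, shares 13.9% of the exon bases of Fgfr3. Without the strand setting, its reads there may be part of the Fgfr3 count. Fgfr2 shares 3.0% of its exon bases with Ctbp2 on the same strand, and Fgfr1 1.7% with the antisense gene Gm16159. Fgfrl1, a receptor-like protein that binds FGFs and lacks the kinase domain, had 23.1, 22.5 and 26.4 CPM in control mice and 26.6, 25.7 and 23.1 CPM in mutant mice. The groups overlapped for Fgfrl1, and its log2 fold change was 0.06 (95% interval -0.16 to 0.28, adjusted p = 0.703 by edgeR). As a ratio, that interval ran from 0.897 to 1.22.

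**Figure D2:**
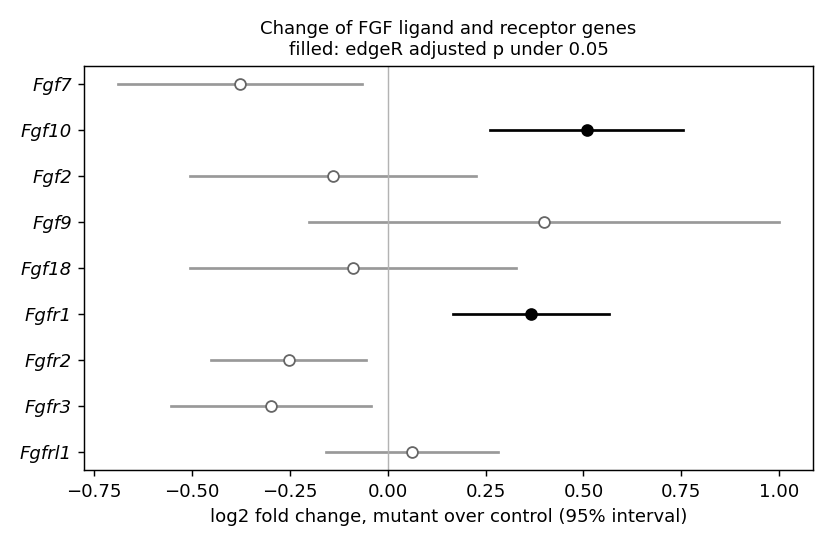
Log2 fold change of each of the 9 genes, mutant over control (horizontal axis), with its 95% interval from edgeR. Filled points passed an adjusted p of 0.05, which are Fgf10 at 0.51 and Fgfr1 at 0.37.

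The levels of the 9 genes were compared per kilobase of exons, since longer transcripts give more reads. In controls Fgfr1 stood first with 58.1 ± 6.01 CPM per kilobase, followed by Fgfr2 with 28.6 ± 2.31. Fgfrl1 (8.62 ± 0.750), Fgf7 (8.08 ± 1.34) and Fgf10 (7.58 ± 0.857) came next, and each overlapped its neighbour in this order. Fgf18 (4.75 ± 0.622), Fgfr3 (3.32 ± 0.153), Fgf2 (0.933 ± 0.0571) and Fgf9 (0.370 ± 0.0761) followed without overlap. In mutants Fgf10 followed Fgfr2 with 10.8 ± 1.49 CPM per kilobase, and its range lay above those of Fgfrl1 (9.03 ± 0.658) and Fgf7 (6.23 ± 0.932). Among mutant neighbours only Fgf7 and Fgf18 (4.46 ± 0.878) overlapped. When the length of the longest transcript was used in place of all exons, Fgfr3 (5.60) came before Fgf18 in controls. With that length the mutant range of Fgf10, 10.7 to 13.9 CPM per kilobase, overlapped that of Fgfrl1, 9.91 to 11.4, and stayed above that of Fgf7.

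**Figure D3:**
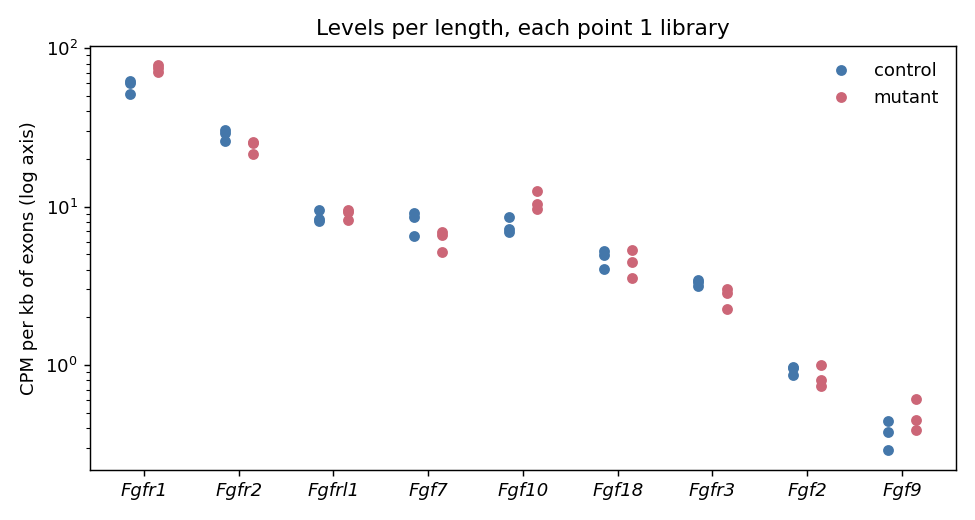
CPM per kilobase of exons on a log axis for the 9 genes in order of the control mean, each point 1 library. Fgfr1 is highest in both groups, and Fgf10 overlaps Fgf7 in controls and lies above it in mutants.

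The shares that the receptor genes took of their summed level lay apart between the groups, Fgfrl1 excepted. Of the summed per-kilobase level of Fgfr1, Fgfr2, Fgfr3 and Fgfrl1, Fgfr1 took 57.5%, 60.5% and 58.4% in controls and 65.3%, 67.7% and 69.9% in mutants. Fgfr2 took 29.3%, 28.4% and 29.4% in controls and 23.1%, 22.3% and 19.8% in mutants. The groups were apart for both shares, by 8.85 percentage points for Fgfr1 and -7.31 for Fgfr2. The share of Fgfr3 was 3.39% ± 0.433 and 2.45% ± 0.443, and that of Fgfrl1 8.77% ± 0.803 and 8.17% ± 0.580. The exact permutation test gave a two-sided p of 0.1, the smallest possible, for Fgfr1, Fgfr2 and Fgfr3 and of 0.3 for Fgfrl1, or 0.133 and 0.3 after adjustment over the 4 shares. With Fgfr4 added to the sum, a choice made after the data were seen, the differences were 11.5 points for Fgfr1 and -3.54 for Fgfr2, and that of Fgfrl1 turned to 0.197.

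**Figure D4:**
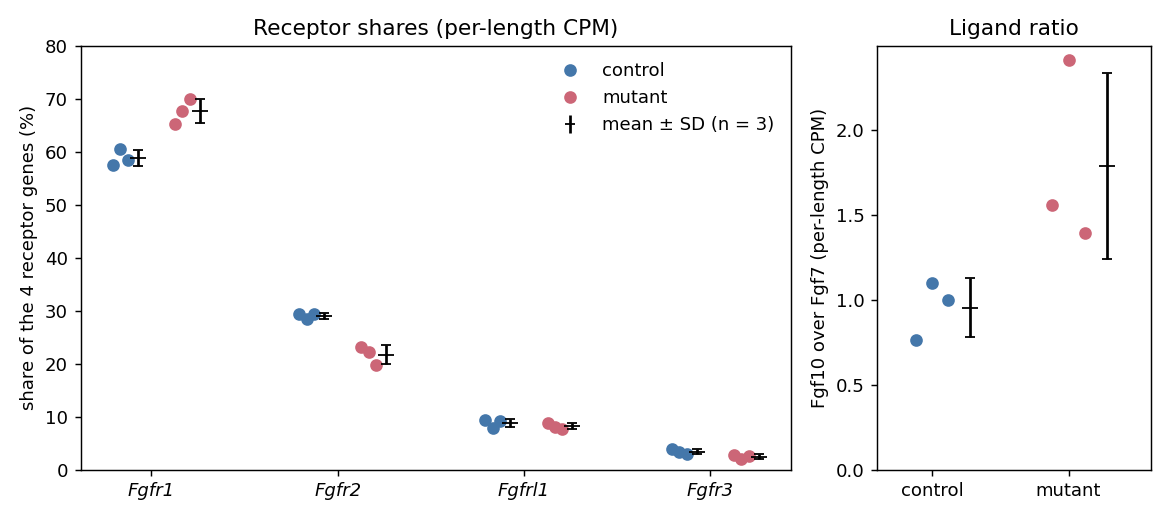
Left, the share of each receptor gene in the summed per-kilobase level of the 4 (percent), and right, the ratio of Fgf10 to Fgf7, in each library (points) with mean and SD (n = 3). Fgfr1 shares are 65.3% to 69.9% in mutants and 57.5% to 60.5% in controls.

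Fgfr4, the remaining kinase receptor of the family, fell in mutant cells. It had 128, 159.6 and 139.8 CPM in control mice and 104, 111 and 102 CPM in mutant mice. The groups did not overlap, and mutants lay close together. It fell by 0.43 on the log2 scale (adjusted p = 0.0071 by edgeR), and the call held in all 12 alternatives. Per kilobase it had 40.2 ± 4.56 in controls and 29.8 ± 1.27 in mutants, between Fgfr1 and Fgfr2 in both groups. With the length of the longest transcript Fgfr4 (42.8 in controls, 31.8 in mutants) came after Fgfr2 (66.8 and 56.1). Fgfr4 is a receptor of developing muscle, and the markers of skeletal muscle and satellite cells were higher in these mutants, as given above. The part of muscle cells in the Fgfr4 values was not tested.

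Of 8 genes in the list of Fgfr4, co-receptors and binding proteins, 7 were tested, 2 fell and 5 were not called. These 2 are 28.6% of the 7, beside 17.8% of all genes tested that were called. At an unadjusted p under 0.05, 3 of the 7 were lower and 0 higher. Flrt2, a membrane protein of the FLRT family that can associate with FGF receptors, had 115, 119.7 and 146 CPM in control mice and 69.0, 63.2 and 75.7 CPM in mutant mice. It fell by 0.87 on the log2 scale (adjusted p = 0.000401 by edgeR), and mutants were well apart from controls. Of 13 other ligand genes only 4 had enough counts to be tested, and Fgf21, an endocrine factor of metabolism, fell. Fgf21 had 1.34, 1.59 and 0.832 CPM in control mice and 0.336, 0.130 and 0.422 CPM in mutant mice, from 2 to 21 counts per library, with mutant replicate 2 under the level of 3 counts (75.1% lower in the fit, adjusted p = 0.0115 by edgeR). Its mutant counts of 5, 2 and 8 were under the filter's minimum of 10, so it passed only through the control libraries. The 1 call is 25% of the 4 tested. None of the 4 was called higher by edgeR, and 1 was higher at an unadjusted p under 0.05. That gene, Fgf23, a hormone of phosphate balance, was called higher without mutant replicate 3 (log2 fold change 0.91, adjusted p = 0.0464 by edgeR) and is named here after its values were seen.

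The FGF homologous factors are relatives that stay inside the cell and act on sodium channels. Of the 4, Fgf11 fell from 11.0 ± 1.63 to 6.98 ± 0.379 CPM (-0.67 in log2, adjusted p = 0.0103 by edgeR) and Fgf12 rose from 0.856 ± 0.0973 to 1.65 ± 0.180 CPM (0.95 in log2, adjusted p = 0.0414). These 2 are 50% of the 4, beside 17.8% of all genes tested that were called. The call of Fgf12 was lost in 9 of 12 alternatives, which include the omission of any 1 library (largest adjusted p 0.173). The call of Fgf11 did not hold without control replicate 3 (0.0521), where falls in the list numbered 0, and without mutant replicate 1 they numbered 2.

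Heparan sulfate genes moved both ways. Of 12 tested core proteins 3 rose and 1 fell, which is 33.3% called beside 17.8% of all genes tested, a difference that was not tested. Leaving out control replicate 3 or any 1 mutant library left 1 rise, and leaving out mutant replicate 2 or 3 left 0 falls. Gpc1, a glypican anchored to the membrane by a lipid, had 84.0, 94.9 and 86.7 CPM in control mice and 119.9, 126 and 157 CPM in mutant mice, with mutant replicate 3 the highest (0.60 in log2, adjusted p = 0.00322 by edgeR). The syndecan genes differed in direction: Sdc1 rose from 148 ± 15.3 to 183 ± 0.657 CPM (0.30 in log2), and Sdc2 fell from 156 ± 9.71 to 126 ± 6.66 CPM (-0.30). Their edgeR adjusted p-values were 0.0252 and 0.0184. Sdc3, named here after its values were seen, was called higher as well (0.38 in log2, adjusted p = 0.027 by edgeR). The Sdc3 call was lost without any 1 library but control replicate 1. The call of Sdc1 was lost without any 1 library but control replicate 2 (largest adjusted p 0.0949), and that of Sdc2 without mutant replicate 2 (0.0629) or 3 (0.0508).

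Of 17 tested genes that build or edit heparan sulfate 3 rose and 1 fell. The share called was 23.5%, beside 17.8% of all genes tested, a difference that was not tested. There was 1 rise when control replicate 2 or mutant replicate 1 was left out, and both counts were 0 without control replicate 3 or mutant replicate 3. Falls numbered 4 without mutant replicate 1. Among them Hs6st3, named here after its values were seen, had 8 and 7 counts in mutant replicates 2 and 3. These counts were under the filter's minimum of 10, so Hs6st3 passed there only through the control libraries. Sulf1, which removes sulfate groups outside the cell, rose from 79.2 ± 10.9 to 110.5 ± 16.1 CPM (0.48 in log2, adjusted p = 0.0271 by edgeR). Its relative Sulf2, of the same activity and named here after its values were seen, had 478 ± 48.9 and 376 ± 59.3 CPM and was not called (-0.35 in log2, adjusted p = 0.0634), though it was called lower with library totals only (0.0426), with no filter on low counts (0.000862), by DESeq2 (0.0164) and without mutant replicate 1 (0.018). Hs6st2, a sulfotransferase, rose from 27.4 ± 0.317 to 35.5 ± 4.87 CPM (0.38, adjusted p = 0.0243). Ndst3, which adds sulfate to the chain's nitrogen, fell from 49.6 ± 4.40 to 35.0 ± 5.66 CPM (-0.50, adjusted p = 0.0127). Its relative Ndst1, of the same activity and named here after its values were seen, rose. It had 323 ± 19.3 CPM in control mice and 385 ± 24.7 CPM in mutant mice (0.25 in log2, adjusted p = 0.0471 by edgeR). The Ndst1 call was lost with DESeq2 size factors and with library totals only. It was also lost without any 1 control library and without mutant replicate 1 or 3. Calls of Sulf1, Hs6st2 and Ndst3 were lost without mutant replicate 3 or control replicate 3. Those of Hs6st2 without control replicate 2 and of Sulf1 without mutant replicate 1 were lost too (largest adjusted p 0.124).

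Of 18 tested genes that relay the receptor signal, from Frs2 to the ERK kinases, 1 rose and none fell by edgeR. At an unadjusted p under 0.05, 4 were higher and 0 lower. The share called was 5.56%, beside 17.8% of all genes tested, a difference that was not tested. Mapk3, which encodes the kinase ERK1, rose from 88.4 ± 4.09 to 109 ± 1.28 CPM (0.30 in log2, adjusted p = 0.0133 by edgeR). That call did not hold without control replicate 3 (0.0504) or mutant replicate 3 (0.0542), which left 0 rises, and without mutant replicate 1 there were 2.

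Of 17 tested target and feedback genes 3 rose and none fell by edgeR. At an unadjusted p under 0.05, 6 were higher and 0 lower. The median log2 fold change of the 17 was 0.22, beside 0.01 over all genes tested. The share called, 17.6%, was near the 17.8% of all genes tested. Rises numbered 1 without control replicate 3, and 1 gene was called lower without control replicate 1. These genes answer to other receptor tyrosine kinases too, PDGF receptors among them. The feedback inhibitors Spry1 (0.51, adjusted p = 0.00657 by edgeR) and Il17rd, which acts on FGF receptor signalling at the membrane (0.49, adjusted p = 0.0137), rose. Il17rd had 44.0, 46.6 and 38.7 CPM in control mice and 50.1, 65.3 and 65.4 CPM in mutant mice. The transcription factor gene Etv5 rose from 43.6 ± 2.06 to 54.8 ± 7.21 CPM (0.33 in log2, adjusted p = 0.0343). The call of Etv5 was lost without mutant replicate 2 or any 1 control library (largest adjusted p 0.119), and that of Il17rd did not hold without control replicate 3 (0.0638) or mutant replicate 3 (0.0559).

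**Figure D5:**
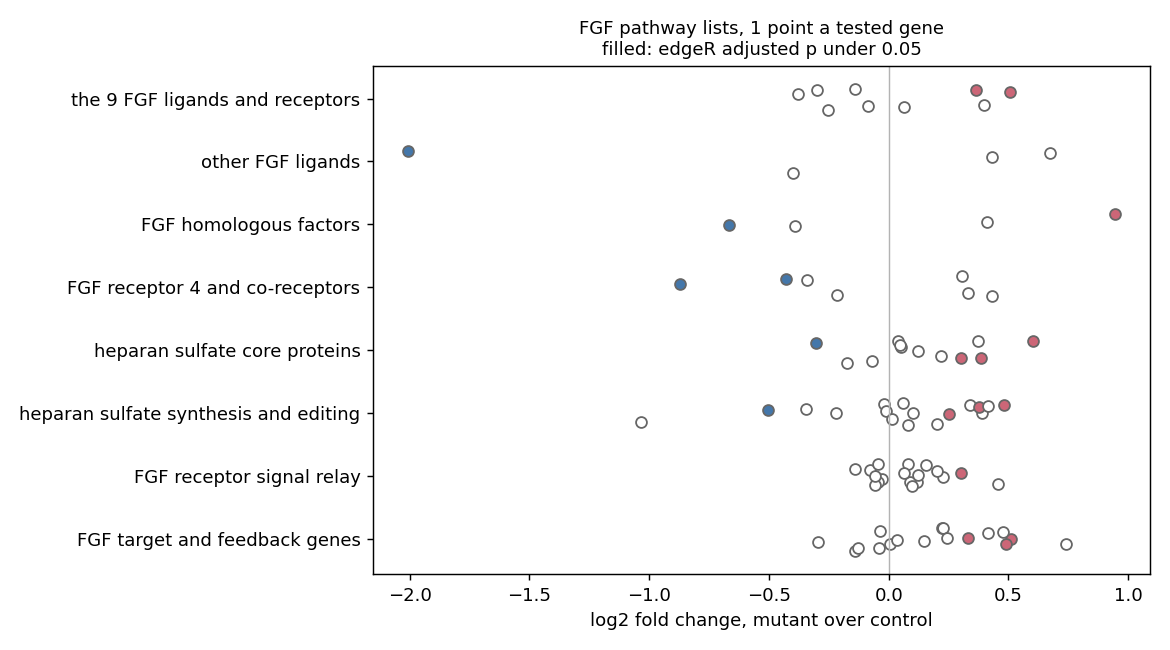
Log2 fold change, mutant over control, of every tested gene in the 8 lists (rows), with red for genes called higher and blue for genes called lower by edgeR. Of the 79 tested genes outside the 9 FGF ligands and receptors 11 were called higher and 6 lower.

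Over these 7 lists together, 79 of 90 genes matched in the files were tested and 21.5% were called, with a median log2 fold change of 0.09. The share called over all genes tested was 17.8%.

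The genes whose pattern over the 6 libraries lay nearest to that of Fgf10 were Net1, Tigd2 and Hdc, the histidine decarboxylase. Nearness is the root mean square difference of log2 CPM centred on each gene's own mean, among 10896 genes of at least 5 CPM. It was 0.05, 0.05 and 0.06 for these genes. Net1 had 67.0 ± 4.45 CPM in control mice and 99.6 ± 12.2 CPM in mutant mice. The nearest to Fgfr1 were the forkhead factor gene Foxo4, the zinc finger gene Zfp462 and the semaphorin gene Sema5a, each at 0.03. Sema5a had 246 ± 21.8 CPM in control mice and 321 ± 21.8 CPM in mutant mice. These are descriptions over 6 libraries that share the group difference.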

How the data were processed

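Whole-number read counts per Ensembl gene were deposited by the authors, 1 file per library, with nothing normalized. The submitters' processing notes name the build mm9 and, without roles, HTSeq 0.5.3, TopHat2 2.0.4, cutadapt 1.1, FastQC and DESeq2. The sources used here do not say whether counting used strand. The 5 rows that name no gene (36.9% to 41.7% of the reads listed) stayed out.

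Genes passing filterByExpr (minimum count 10, minimum total 15) were scaled by TMM. The main test was the robust quasi-likelihood test of edgeR 4.0.16 (R 4.3.3) for the effect of group, with no other term. P-values were adjusted (Benjamini-Hochberg) over all genes tested, with 0.05 as threshold. DESeq2 1.42.0, limma-voom (limma 3.58.1) and other scalings were alternatives. Lengths and symbols came from GENCODE M21 and promoters from RefSeq, both on GRCm38, so they bear on no deposited coordinate.

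The members and lists were chosen with earlier results of these data known. All 9 members are named. From each other list the 3 called genes with the smallest adjusted p are named. Genes of like pattern are the 3 nearest, by root mean square difference, to each of the 2 members with the smallest adjusted p. The result of 1 marker list is not reported here.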

Additional observations from a re-analysis of the deposited data

How the results depend on the processing

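The replicate numbers were not shown to pair the libraries: deviations from group means correlated at 0.13, -0.01 and -0.11 between libraries of the same number. These values cannot exclude a shared litter or batch, which the labels do not give. With the number as a block the members called lower numbered 1 (Fgf7, log2 fold change -0.37, adjusted p = 0.0238 by edgeR), homologous factors numbered 0 higher and 2 lower, and Sulf2 was called lower (adjusted p = 0.0192). With no filter on low counts 2 members were called lower, Fgf7 (-0.38, adjusted p = 0.00667) and Fgfr2 (-0.26, 0.0227), and homologous factors again numbered 0 higher and 2 lower. DESeq2 called 0 homologous factors higher. Genes of heparan sulfate synthesis called lower numbered 2 with the block, with no filter, with DESeq2 and with library totals only.

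With 1 library left out at a time, 658 to 1199 genes were higher and 753 to 1500 lower, both lowest without mutant replicate 3, and both were also down by over 1.5 times without control replicate 2 (776 and 881) or 3 (679 and 807). Members numbered 1 to 2 higher and 0 to 1 lower. Log2 fold changes ran from -0.50 to -0.26 for Fgf7, -0.24 to 0.047 for Fgf18 (turned without mutant replicate 2), 0.27 to 0.42 for Fgfr1 and -0.33 to -0.17 for Fgfr2. Other ligands numbered 0 to 1 higher, homologous factors 0 higher and 0 to 2 lower, and heparan sulfate core proteins 1 to 2 higher and 0 to 1 lower. Genes of heparan sulfate synthesis numbered 0 to 3 higher and 0 to 4 lower, relay genes 0 to 2 higher, and target genes 1 to 3 higher and 0 to 1 lower.

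Adding Fgfr4 to the receptor sum, an alternative chosen after the data were seen, gave share differences of 11.5 points for Fgfr1, -3.54 for Fgfr2, -0.477 for Fgfr3 and 0.197 for Fgfrl1. With longest transcripts as lengths, control levels in CPM per kilobase were 113.8 for Fgfr1, 66.8 for Fgfr2, 10.3 for Fgfrl1, 9.82 for Fgf7, 8.48 for Fgf10, 5.60 for Fgfr3, 1.06 for Fgf2 and 0.478 for Fgf9. The causes of these shifts were not tested beyond the change of setting itself. Fgf9, with 21 to 54 counts per library, is the member whose precision depth limits most.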

Other observations

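Of the 13 other ligand genes, 9 did not pass the filter. Fgf4, a ligand of early embryos, had 7, 3 and 4 counts in control replicates 1 to 3 and 0, 1 and 3 in mutant replicates 1 to 3. Fgf5, a ligand that ends hair growth, had 3, 1 and 8 counts in controls and 2, 1 and 4 in mutants. Fgf8 had 1 count in 1 mutant library and 0 in the other 5. Genes below the filter were not tested. Kl, the co-receptor of Fgf23, had 1 to 3 counts in every library.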
